A study of Mus musculus with 24 samples.

Results

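The heat-shock and DNAJ chaperone genes were described in sorted tumour cells of 3 mouse mammary carcinoma lines. They were taken by symbol alone: the small heat-shock proteins, HSP70s, chaperonins and HSP110 (Hspa, Hspb, Hspd, Hspe and Hsph followed by a digit), the HSP90s, and the J-domain proteins (Dnaja, Dnajb and Dnajc followed by a digit). Without pseudogenes this gave 72 genes of the 24034 symbols present in all 3 count tables. Of these, 46 encode proteins of the cytosol or nucleus, 13 of the endoplasmic reticulum (ER) and 9 of mitochondria, and 4 were not assigned. The lines 4T07, D2A1 and EMT6 had been transduced with mCherry and with mVenus-p27K, a reporter built on the cell cycle inhibitor p27, and 250000 cells were placed in the mammary fat pad of female Balb/cJ mice. Tumours were taken on day 14, and a p27K high group, described in the labels as quiescent, and a p27K negative group, described as proliferative, were sorted from each tumour. Both groups carry both transgenes, no drug was given, and neither the promoters of the transgenes nor whether the lines were clonal are given in the sources used here. There were 24 bulk RNA libraries from 12 tumours, 4 tumours per line, and the comparison is p27K high against p27K negative cells of the same tumour.

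Molecular chaperones hold unfolded proteins in solution and help them fold. J-domain proteins deliver clients to HSP70s and start their ATP cycle, HSP110s exchange the nucleotide, HSP90s take late folding intermediates such as kinases and steroid receptors, and small heat-shock proteins bind unfolding proteins without ATP. The heat-shock factor HSF1 raises many cytosolic members under stress, the unfolded protein response raises those of the ER, and a separate set works in the mitochondrial matrix, where the chaperonin Hspd1 and its lid Hspe1 fold imported proteins.

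The libraries held 27887221 to 45460880 counts in 4T07, 1335433 to 20174767 in D2A1 and 13769682 to 20142013 in EMT6. The p27K high library of 4T07 tumour 2 stood apart with 13500 genes detected, while the other 3 of its group had 15094 to 15370. The D2A1 p27K negative libraries of tumours 1, 2 and 3 were the shallowest, at 1335433, 2110563 and 1802042 counts, while that of tumour 4 held 15641189. The 4 cycling-cell markers fell in every line and summed to 63.1 to 103 CPM (counts divided by the TMM-scaled total of the library in megareads) in p27K high against 3209 to 4421 CPM in p27K negative cells of 4T07. Markers of other cells moved with the gate as well. In 4T07 all 11 macrophage and monocyte markers fell, with a sum of 82.9 to 108 CPM in p27K high and 400 to 998 CPM in p27K negative libraries. In D2A1 edgeR called 0 of the 7 tested (DESeq2 called 2, both lower), with 4 lower at an unadjusted p under 0.05 and sums of 10.1 to 27.4 and 15.6 to 57.1 CPM in p27K high and p27K negative libraries. In EMT6 2 of 5 rose and 1 fell, with 32.9 to 44.1 CPM in p27K high and 24.7 to 33.3 CPM in p27K negative libraries. The summed endothelial markers reached at most 5.56 CPM in p27K high and 25.2 CPM in p27K negative libraries of D2A1, and T and NK cell markers stayed at or under 3.05 CPM in every library, with Cd3e, Cd3g and Nkg7 at 0 in all D2A1 libraries. Fibroblast genes, which these lines may express themselves, summed to 1471 to 2260 CPM in p27K high against 562 to 735 CPM in p27K negative cells of 4T07, with 2 rises and 2 falls among 6 tested. In D2A1 that sum was 606 to 711 against 562 to 700 CPM, with 1 rise and 4 falls among 7, and in EMT6 5938 to 7823 against 4746 to 6269 CPM, with 5 rises among 6. The epithelial list, read beside the carcinoma label, held all 6 genes above 0, which takes only 1 count in 1 library of a line. Of the 6, 4 could be tested in 4T07, 2 in D2A1 and 4 in EMT6, with Krt8 lower in p27K high cells of all 3 lines. The list summed to 431 to 571 CPM in p27K high against 565 to 686 CPM in p27K negative libraries of 4T07. That sum was 92.8 to 203 against 62.5 to 454 CPM in D2A1, and 603 to 859 against 749 to 1040 CPM in EMT6. Epcam averaged 0.62 and 0.85 CPM in the gates of 4T07. The part of these cell markers in the chaperone results was not tested. In bulk RNA, fewer cells of a type and less RNA per cell cannot be told apart.

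The chaperones went up more often than down in p27K high cells of 4T07 and down more often than up in D2A1 and EMT6. In 4T07, 60 members had enough counts to be tested. Of them 20 rose, 6 fell and 34 did not pass an adjusted p of 0.05, where 22.1% of all tested genes rose and 23.6% fell (45.7% changed either way). Their median log2 change, p27K high over p27K negative, was 0.15, against -0.0034 over all tested genes. In D2A1, 7 of 61 rose and 14 fell, with a median of -0.004, where 14.9% of all tested genes rose and 14.7% fell (29.5% changed either way). EMT6 had 11 rises and 28 falls among 62, with a median of -0.16, where 24.1% of all tested genes rose and 25.1% fell (49.2% changed either way). Read against these shares, 33.3% of the tested members rose in 4T07 and 10% fell, 11.5% rose and 23.0% fell in D2A1, and 17.7% rose and 45.2% fell in EMT6. A group of 8 was tested in no line: Dnajb3, Dnajb7, Dnajb8, Dnajc5b, Dnajc5g, Dnajc6, Hspb3 and Hspb9, some of which are known for expression in testis, brain or muscle.

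These counts depended on scaling and on single tumours. With libraries scaled by total count alone the median of all 4T07 genes moved to -0.14, the members' median to 0.014, and the 4T07 calls became 12 rises and 11 falls (14.8% and 29.9% of all genes), so that rises were 52.2% of calls in place of 76.9%. The counts over all genes moved with those of the members. Without 4T07 tumour 2 there were 25 rises and 12 falls among members, where 30.2% of all tested genes rose and 29.7% fell. Without 4T07 tumour 1 there were 10 and 3, where 12.7% and 16% of all genes did. In D2A1 the counts were 3 rises and 9 falls without tumour 1 (9.07% and 9.7% of all genes), 4 and 10 without tumour 2 (9.87% and 10.1%), and 11 and 21 without tumour 3 (17.9% and 19.1%). In EMT6 there were 7 rises and 21 falls without tumour 2 (18.2% and 19.7%). A fit without the tumour block gave 11 rises in 4T07 (15.6% of all genes rose), and 5 rises and 18 falls in EMT6 (15% and 18.4%).

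**Figure D1:**
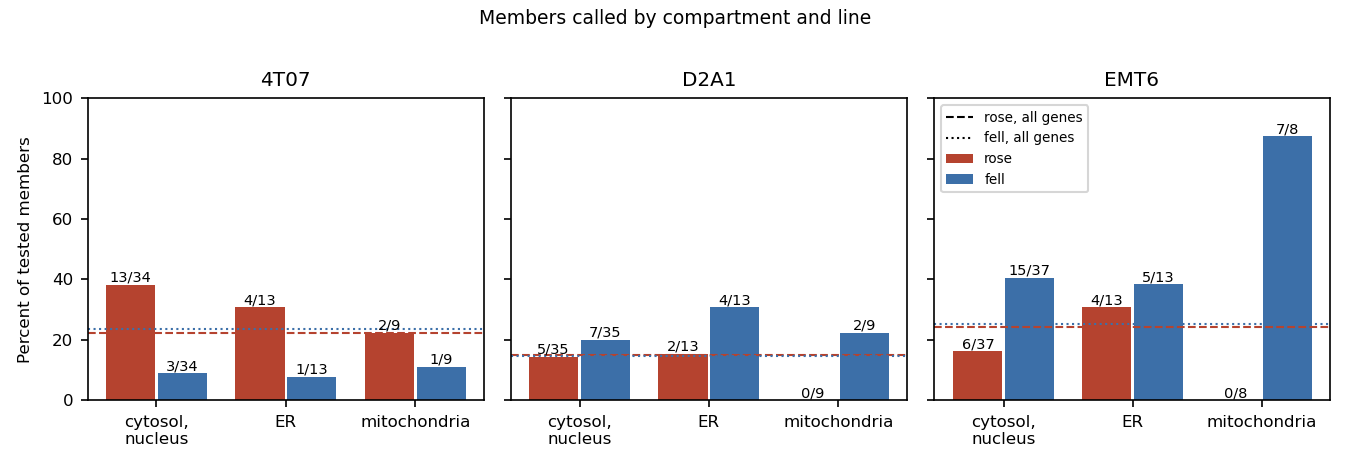
Bars give the percent of tested members of each compartment that rose (red) or fell (blue) in p27K high over p27K negative cells, with the counts above them, and dashed and dotted lines give the percent of all tested genes that rose or fell. Rises of cytosolic members (13 of 34) stand above the line in 4T07, and falls of mitochondrial members (7 of 8) stand above it in EMT6. Both counts were lower under some other settings.

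By compartment, cytosolic and nuclear members had 13 rises and 3 falls among 34 tested in 4T07, 5 and 7 among 35 in D2A1 and 6 and 15 among 37 in EMT6. ER members had 4 rises and 1 fall among 13 in 4T07, 2 and 4 in D2A1 and 4 and 5 in EMT6. For mitochondrial members there were 2 rises and 1 fall among 9 in 4T07, 0 and 2 among 9 in D2A1 and 0 and 7 among 8 in EMT6. The mitochondrial median was 0.031 in 4T07, -0.30 in D2A1 and -0.27 in EMT6, where the 4 tumours had medians of -0.27, -0.29, -0.27 and -0.21. Of the mitochondrial members, 3 rose at an unadjusted p under 0.05 in D2A1 and 0 in EMT6, and DESeq2 also called 0 rises in both. In D2A1, 1 mitochondrial rise was called with no filter on low counts, without tumour 3 and after thinning to equal depth, and 2 in the joint fit. In D2A1 the mitochondrial medians by tumour were -0.44, -0.15, 0.21 and -0.51, so tumour 3 ran the other way. Without D2A1 tumour 3, 5 mitochondrial members fell. With total-count scaling 3 mitochondrial members fell and 1 rose in 4T07, and the mitochondrial median there was -0.10. Mitochondrial falls in EMT6 numbered 4 without the tumour block, 4 without tumour 2 and 3 in the joint fit. Of all genes, 18.4% fell without the block and 19.7% without tumour 2. Cytosolic and nuclear rises in 4T07 numbered 7 without the tumour block, with total-count scaling and without tumour 1. Of all genes, 15.6%, 14.8% and 12.7% rose there, in that order. ER rises in EMT6 numbered 2 with DESeq2, without the tumour block and without tumour 1 or 4, and 1 without tumour 2. All genes rose there at 19.7%, 15%, 20.1%, 19.1% and 18.2%, in that order. ER falls in D2A1 numbered 1 without tumour 1 and 2 without tumour 2 or 4. There 9.7%, 10.1% and 11.8% of all genes fell. ER rises in D2A1 numbered 1 without tumour 1 or 2 and 4 without tumour 3.

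Of 58 members tested in all 3 lines, 5 rose in each (Dnajb2, Dnajb9, Dnajc18, Dnajc5 and Hspb1) and 3 fell in each (Dnajb11, Dnajc9 and Hspa14). A further 6 rose in 1 line and fell in another (Dnaja1, Dnaja2, Hsp90ab1, Hspa5, Hspa9 and Hspe1), and for each of them 4T07 was the line with the rise. Another 15 members were called in no line in which they were tested: Dnaja4, Dnajb12, Dnajb13, Dnajb5, Dnajb6, Dnajc12, Dnajc14, Dnajc16, Dnajc17, Dnajc24, Dnajc28, Dnajc30, Hspa12b, Hspb2 and Hspb6. The share of all genes with each of these patterns was not counted, so whether the members stand out in them is not known.

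**Figure D2:**
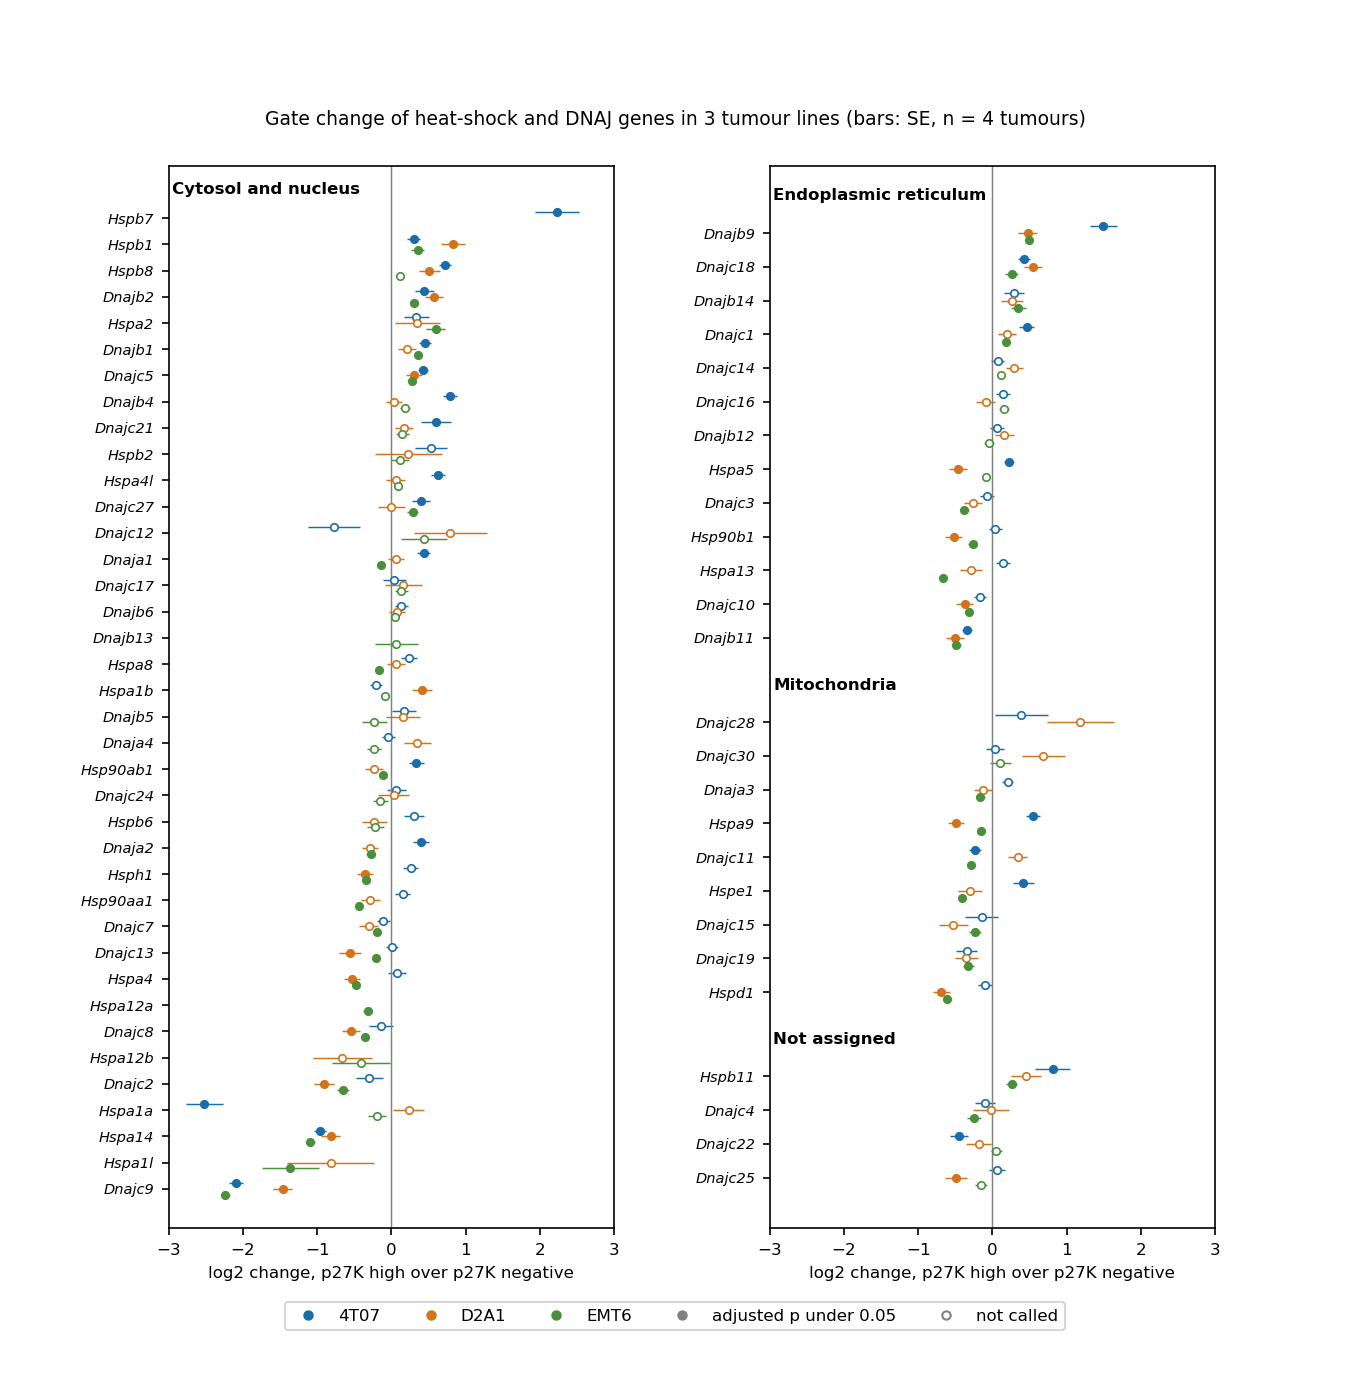
Each point is the log2 change of a tested member, p27K high over p27K negative, in 1 line, with the standard error of the edgeR fit (n = 4 tumours), and filled points passed an adjusted p of 0.05. Dnajc9 and Hspa14 lie left of 0 in all 3 lines, Hspb1 and Dnajb9 lie right of it, and Hspa1a of 4T07 lies farthest left and Hspb7 of 4T07 farthest right.

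Levels between genes were compared as mean CPM per kilobase of annotated exon. On this scale the most abundant members of p27K negative 4T07 cells were the ER chaperone Hspa5, at 1670 in p27K high and 1433 in p27K negative cells, and the cytosolic HSP90 Hsp90ab1, at 1589 and 1247. Hsp90ab1 led in D2A1, at 1031 in p27K high and 1208 in p27K negative cells, and in EMT6, at 1326 and 1429. Hspa5 was lower there, at 336 and 459 in D2A1 and 355 and 376 in EMT6. The small heat-shock gene Hspb1 was at 54.5 and 44.0 CPM per kilobase in 4T07, 619 and 341 in D2A1 and 313 and 258 in EMT6. Each line was sequenced in a run of its own, so line and run cannot be told apart in these levels. In the values that follow, CPM are given in the order of tumours 1 to 4 for 4T07 and D2A1 and of the column numbers 0, 1, 2 and 4 for EMT6, changes are log2 ratios with p27K high on top and their standard error over 4 pairs, and adjusted p-values are those of edgeR's quasi-likelihood test. Log2 changes of members are set against the medians over all genes of -0.0034 in 4T07, 0.022 in D2A1 and 0.018 in EMT6. A call written as lost did not pass under the setting named, and one written as gained passed there but not in the fit whose values are given.

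**Figure D3:**
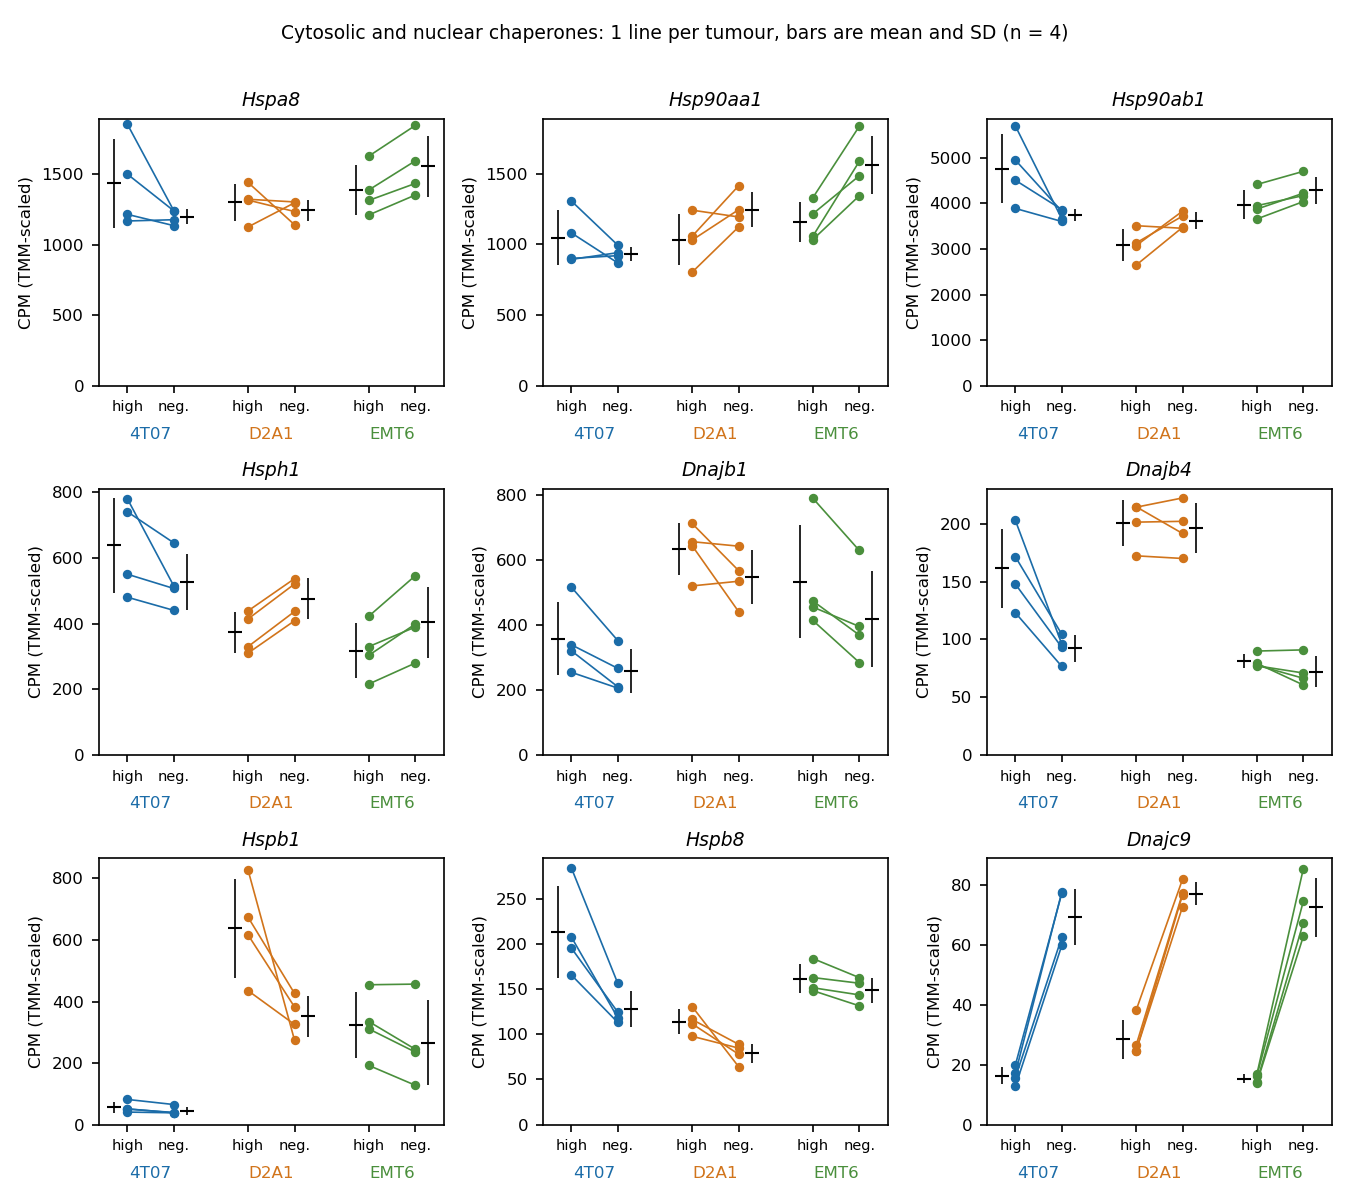
Each line joins the p27K high (left) and p27K negative (right) library of a tumour for 9 cytosolic or nuclear members in CPM, with mean and SD (n = 4) in black beside them. Dnajc9 drops in all 12 p27K high libraries, and Hsp90ab1 and Hsph1 are up in 4 of 4 tumours of 4T07 and down in 4 of 4 of EMT6.

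The constitutive cytosolic HSP70, Hspa8, helps to fold new proteins and strips clathrin coats. It fell in EMT6 and did not pass the test in the other lines. Hspa8 measured 1499, 1853, 1214 and 1167 CPM in the p27K high libraries of 4T07, against 1239, 1240, 1134 and 1176 CPM in its p27K negative libraries. Hspa8 measured 1321, 1315, 1440 and 1125 CPM in the p27K high libraries of D2A1, against 1302, 1234, 1140 and 1296 CPM in its p27K negative libraries. Hspa8 measured 1627, 1313, 1387 and 1210 CPM in the p27K high libraries of EMT6, against 1844, 1433, 1593 and 1351 CPM in its p27K negative libraries. The Hspa8 groups overlapped in each line, with p27K high above p27K negative in 3 of 4 tumours in 4T07, 3 of 4 in D2A1 and 0 of 4 in EMT6. Hspa8 had a log2 change of 0.24 ± 0.11 in 4T07 (adjusted p = 0.108), 0.061 ± 0.12 in D2A1 (adjusted p = 0.746) and -0.17 ± 0.036 in EMT6 (adjusted p = 0.00436). The Hspa8 call in 4T07 was gained in the joint fit. The Hspa8 call in EMT6 was lost without the tumour block and in the joint fit.

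The stress-inducible HSP70s Hspa1a and Hspa1b are neighbours on chromosome 17 (chr17:34969190-34972156, minus strand, and chr17:34956436-34959238, minus strand) with near-identical coding sequences, so reads can be split between them in counting and each count is uncertain. Nearly all reads went to Hspa1b: Hspa1a held 0.533% to 0.706% of the pair's CPM in p27K high and 2.34% to 4.11% in p27K negative libraries of 4T07. Hspa1a measured 2.09, 1.18, 1.17 and 1.14 CPM in the p27K high libraries of 4T07, against 8.51, 5.28, 11.6 and 7.16 CPM in its p27K negative libraries. Hspa1a measured 16.9, 14.5, 9.58 and 10.1 CPM in the p27K high libraries of D2A1, against 11.1, 12.6, 6.09 and 11.0 CPM in its p27K negative libraries. Hspa1a measured 14.7, 9.72, 8.18 and 4.83 CPM in the p27K high libraries of EMT6, against 20.8, 9.74, 9.45 and 4.56 CPM in its p27K negative libraries. Hspa1a in p27K high libraries lay below every p27K negative library in 4T07. The Hspa1a groups overlapped in D2A1 and EMT6, with p27K high above p27K negative in 3 of 4 tumours in D2A1 and 1 of 4 in EMT6. Hspa1a had a log2 change of -2.52 ± 0.25 in 4T07 (adjusted p = 0.000243), 0.23 ± 0.21 in D2A1 (adjusted p = 0.431) and -0.19 ± 0.12 in EMT6 (adjusted p = 0.217). In 4T07, Hspa1b was at 294, 170, 218 and 166 CPM in p27K high libraries, against 356, 199.5, 273 and 167 CPM in p27K negative libraries. In D2A1, Hspa1b was at 939.8, 887, 738 and 651 CPM in p27K high libraries, against 678, 734, 410.2 and 625 CPM in p27K negative libraries. In EMT6, Hspa1b was at 1018, 771, 597 and 359 CPM in p27K high libraries, against 1119, 755, 663 and 384 CPM in p27K negative libraries. The Hspa1b groups overlapped in each line, with p27K high above p27K negative in 0 of 4 tumours in 4T07, 4 of 4 in D2A1 and 1 of 4 in EMT6. For Hspa1b the log2 change was -0.21 ± 0.082 in 4T07, 0.41 ± 0.13 in D2A1 and -0.088 ± 0.044 in EMT6, with adjusted p-values of 0.0717, 0.0357 and 0.129 in that order. The Hspa1b call in 4T07 was gained without tumour 2 (adjusted p = 0.0275) and with total-count scaling, over a range of 0.0139 to 0.513 in 11 alternatives. The Hspa1b call in D2A1 was lost without tumour 1 or 2 (adjusted p = 0.162 and 0.0921) and without the tumour block, over a range of 0.000789 to 0.162 in 12 alternatives. With both summed to 1 gene the log2 change was -0.25 ± 0.081 in 4T07 (adjusted p = 0.0400), 0.41 ± 0.13 in D2A1 (adjusted p = 0.0362) and -0.090 ± 0.044 in EMT6 (adjusted p = 0.125). Summed, the pair passed the test for a fall in 4T07 and for a rise in D2A1. The fit of the sum was not repeated under the other settings. The neighbouring Hspa1l is known for expression in testis and was near the lower limit of counting. Hspa1l measured 0.139, 0.162, 0.141 and 0.0634 CPM in the p27K high libraries of 4T07, against 0.274, 0.0834, 0.360 and 0.0823 CPM in its p27K negative libraries. Hspa1l measured 0.953, 1.59, 0.464 and 0.881 CPM in the p27K high libraries of D2A1, against 0.742, 0.468, 1.11 and 3.26 CPM in its p27K negative libraries. Hspa1l measured 0.264, 0.368, 0.449 and 0.874 CPM in the p27K high libraries of EMT6, against 1.17, 1.70, 1.32 and 0.936 CPM in its p27K negative libraries. Hspa1l in p27K high libraries lay below every p27K negative library in EMT6. The Hspa1l groups overlapped in 4T07 and D2A1, with p27K high above p27K negative in 1 of 4 tumours in 4T07 and 2 of 4 in D2A1. Hspa1l had a log2 change of -0.82 ± 0.59 in D2A1 (adjusted p = 0.330) and -1.36 ± 0.38 in EMT6 (adjusted p = 0.0154). The Hspa1l call in EMT6 was lost without tumour 1 or 2 (adjusted p = 0.0748 and 0.0730), over a range of 0.000416 to 0.0748 in 11 alternatives.

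The HSP110s Hspa4 and Hsph1 release ADP from HSP70s. Hspa4 and Hsph1 fell in D2A1 and EMT6, and neither passed the test in 4T07. Hspa4 measured 290.2, 519, 289 and 319.6 CPM in the p27K high libraries of 4T07, against 268, 364, 308 and 369 CPM in its p27K negative libraries. Hspa4 measured 273, 269.9, 260 and 226 CPM in the p27K high libraries of D2A1, against 402, 380.4, 357 and 344 CPM in its p27K negative libraries. Hspa4 measured 239, 271, 294 and 247 CPM in the p27K high libraries of EMT6, against 365, 357, 387 and 351 CPM in its p27K negative libraries. Hspa4 in p27K high libraries lay below every p27K negative library in D2A1 and EMT6. The Hspa4 groups overlapped in 4T07, with p27K high above p27K negative in 2 of 4 tumours in 4T07. Hspa4 had a log2 change of 0.082 ± 0.12 in 4T07 (adjusted p = 0.615), -0.53 ± 0.11 in D2A1 (adjusted p = 0.00243) and -0.48 ± 0.050 in EMT6 (adjusted p = 4.92e-05). Hsph1 measured 739.8, 779, 550 and 480.1 CPM in the p27K high libraries of 4T07, against 645, 514, 507 and 440.1 CPM in its p27K negative libraries. Hsph1 measured 414, 439, 330.1 and 310.4 CPM in the p27K high libraries of D2A1, against 520.4, 537, 437 and 408 CPM in its p27K negative libraries. Hsph1 measured 422, 304, 330 and 216 CPM in the p27K high libraries of EMT6, against 546, 398, 389 and 279.9 CPM in its p27K negative libraries. The Hsph1 groups overlapped in each line, with p27K high above p27K negative in 4 of 4 tumours in 4T07, 0 of 4 in D2A1 and 0 of 4 in EMT6. Hsph1 had a log2 change of 0.26 ± 0.0996 in 4T07 (adjusted p = 0.0673), -0.36 ± 0.11 in D2A1 (adjusted p = 0.0238) and -0.34 ± 0.044 in EMT6 (adjusted p = 0.000198). The Hsph1 call in 4T07 was gained without tumour 2 (adjusted p = 0.0337), with DESeq2 and in the joint fit, over a range of 0.00889 to 0.277 in 12 alternatives. The Hsph1 call in D2A1 was lost without tumour 1, 2 or 4 (adjusted p = 0.115, 0.110 and 0.0782), without the tumour block and with no filter on low counts, over a range of 0.00176 to 0.149 in 13 alternatives. The Hsph1 call in EMT6 was lost without the tumour block. Hspa4l, the remaining member of that family, rose in 4T07 (0.63 ± 0.097, adjusted p = 0.00194) and did not pass the test in D2A1 (0.058 ± 0.13) or EMT6 (0.094 ± 0.044).

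Hspa14, an HSP70 that works with J-proteins at ribosomes, fell in all 3 lines. By the edgeR fit, its level in p27K high cells was 0.514 times that of p27K negative cells in 4T07, 0.567 times in D2A1 and 0.468 times in EMT6. In 4T07, Hspa14 was at 56.2, 62.6, 49.0 and 50.05 CPM in p27K high libraries, against 100, 115, 101 and 106 CPM in p27K negative libraries. In D2A1, Hspa14 was at 49.8, 48.4, 61.1 and 43.0 CPM in p27K high libraries, against 87.6, 99.2, 80.8 and 84.2 CPM in p27K negative libraries. In EMT6, Hspa14 was at 37.0, 38.6, 37.5 and 33.0 CPM in p27K high libraries, against 70.3, 80.0, 83.6 and 77.6 CPM in p27K negative libraries. Hspa14 values of p27K high libraries lay below every p27K negative library in all 3 lines. For Hspa14 the log2 change was -0.96 ± 0.083 in 4T07, -0.82 ± 0.13 in D2A1 and -1.09 ± 0.062 in EMT6, with adjusted p-values of 0.000122, 0.000454 and 7.58e-07 in that order. Its J-protein partner Dnajc2, which binds ribosomes beside it, fell in D2A1 and EMT6. In 4T07, Dnajc2 was at 48.6, 116, 47.9 and 57.9 CPM in p27K high libraries, against 65.0, 83.1, 73.1 and 90.1 CPM in p27K negative libraries. In D2A1, Dnajc2 was at 58.4, 54.2, 82.4 and 45.5 CPM in p27K high libraries, against 107, 116, 118 and 98.1 CPM in p27K negative libraries. In EMT6, Dnajc2 was at 113, 147, 167 and 136 CPM in p27K high libraries, against 223, 204, 253 and 201 CPM in p27K negative libraries. Dnajc2 values of p27K high libraries lay below every p27K negative library in D2A1 and EMT6. The Dnajc2 groups overlapped in 4T07, with p27K high above p27K negative in 1 of 4 tumours in 4T07. For Dnajc2 the log2 change was -0.30 ± 0.18 in 4T07, -0.91 ± 0.13 in D2A1 and -0.65 ± 0.076 in EMT6, with adjusted p-values of 0.225, 0.000171 and 0.000107 in that order. The Dnajc2 call in 4T07 was gained without tumour 2 (adjusted p = 4.88e-05), over a range of 4.88e-05 to 0.589 in 12 alternatives. The testis-enriched HSP70 gene Hspa2 rose in EMT6 at a low level. In 4T07, Hspa2 was at 7.40, 10.2, 7.77 and 7.96 CPM in p27K high libraries, against 6.496, 5.67, 7.14 and 6.97 CPM in p27K negative libraries. In D2A1, Hspa2 was at 5.92, 6.00, 4.95 and 4.96 CPM in p27K high libraries, against 5.94, 2.34, 5.54 and 3.90 CPM in p27K negative libraries. In EMT6, Hspa2 was at 5.34, 5.45, 4.79 and 6.35 CPM in p27K high libraries, against 3.28, 3.75, 3.40 and 4.04 CPM in p27K negative libraries. Hspa2 values of p27K high libraries lay above every p27K negative library in 4T07 and EMT6. The Hspa2 groups overlapped in D2A1, with p27K high above p27K negative in 2 of 4 tumours in D2A1. For Hspa2 the log2 change was 0.34 ± 0.17 in 4T07, 0.35 ± 0.30 in D2A1 and 0.60 ± 0.13 in EMT6, with adjusted p-values of 0.140, 0.416 and 0.00478 in that order.

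The HSP90s of the cytosol are the inducible Hsp90aa1 and the constitutive Hsp90ab1. Hsp90ab1 rose in 4T07 and fell by a smaller amount in EMT6, and Hsp90aa1 fell in EMT6. In 4T07, Hsp90aa1 was at 1080, 1306, 893 and 899.7 CPM in p27K high libraries, against 868, 993, 940.4 and 919 CPM in p27K negative libraries. In D2A1, Hsp90aa1 was at 1056, 1029, 1241 and 802 CPM in p27K high libraries, against 1413, 1244, 1193 and 1122 CPM in p27K negative libraries. In EMT6, Hsp90aa1 was at 1057, 1215, 1329 and 1033 CPM in p27K high libraries, against 1586, 1484, 1834 and 1343 CPM in p27K negative libraries. Hsp90aa1 values of p27K high libraries lay below every p27K negative library in EMT6. The Hsp90aa1 groups overlapped in 4T07 and D2A1, with p27K high above p27K negative in 2 of 4 tumours in 4T07 and 1 of 4 in D2A1. For Hsp90aa1 the log2 change was 0.15 ± 0.102 in 4T07, -0.28 ± 0.12 in D2A1 and -0.43 ± 0.051 in EMT6, with adjusted p-values of 0.259, 0.102 and 0.000114 in that order. The Hsp90aa1 call in D2A1 was gained without tumour 3 (adjusted p = 0.000489), over a range of 0.000489 to 0.375 in 13 alternatives. Hsp90ab1 measured 4953, 5702, 4510 and 3891 CPM in the p27K high libraries of 4T07, against 3830, 3663, 3867 and 3605 CPM in its p27K negative libraries. Hsp90ab1 measured 3075, 3134, 3512 and 2646 CPM in the p27K high libraries of D2A1, against 3832, 3723, 3455 and 3476 CPM in its p27K negative libraries. Hsp90ab1 measured 3660, 4417, 3876 and 3952 CPM in the p27K high libraries of EMT6, against 4041, 4705, 4225 and 4173 CPM in its p27K negative libraries. Hsp90ab1 in p27K high libraries lay above every p27K negative library in 4T07. The Hsp90ab1 groups overlapped in D2A1 and EMT6, with p27K high above p27K negative in 1 of 4 tumours in D2A1 and 0 of 4 in EMT6. Hsp90ab1 had a log2 change of 0.34 ± 0.099 in 4T07 (adjusted p = 0.0276), -0.23 ± 0.12 in D2A1 (adjusted p = 0.154) and -0.11 ± 0.034 in EMT6 (adjusted p = 0.0238). The Hsp90ab1 call in 4T07 was lost without tumour 1 or 3 (adjusted p = 0.114 and 0.0581), without the tumour block and with total-count scaling, over a range of 0.00386 to 0.114 in 12 alternatives. The Hsp90ab1 call in D2A1 was gained without tumour 3 (adjusted p = 0.00130), over a range of 0.00130 to 0.526 in 13 alternatives. The Hsp90ab1 call in EMT6 was lost without tumour 1, 2 or 4 (adjusted p = 0.0697, 0.118 and 0.0820), without the tumour block, with DESeq2 and in the joint fit, over a range of 0.00595 to 0.446 in 12 alternatives.

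Among small heat-shock proteins, Hspb1 rose in all 3 lines. It encodes the stress-induced oligomeric chaperone that also binds actin (chr5:135887919-135889563, plus strand). The mean in D2A1 was 638 ± 162 CPM in p27K high and 352 ± 66.3 CPM in p27K negative cells (SD, n = 4), and the fold change of the edgeR fit was 1.78. Hspb1 measured 81.9, 40.8, 50.6 and 51.4 CPM in the p27K high libraries of 4T07, against 65.3, 38.4, 39.4 and 38.3 CPM in its p27K negative libraries. Hspb1 measured 674, 616, 826 and 435 CPM in the p27K high libraries of D2A1, against 426, 382, 274 and 325 CPM in its p27K negative libraries. Hspb1 measured 454, 311, 335 and 192 CPM in the p27K high libraries of EMT6, against 456, 236, 245 and 128 CPM in its p27K negative libraries. Hspb1 in p27K high libraries lay above every p27K negative library in D2A1. The Hspb1 groups overlapped in 4T07 and EMT6, with p27K high above p27K negative in 4 of 4 tumours in 4T07 and 3 of 4 in EMT6. Hspb1 had a log2 change of 0.30 ± 0.090 in 4T07 (adjusted p = 0.0297), 0.83 ± 0.17 in D2A1 (adjusted p = 0.00212) and 0.35 ± 0.084 in EMT6 (adjusted p = 0.00660). The Hspb1 call in 4T07 was lost without tumour 1, 3 or 4 (adjusted p = 0.132, 0.123 and 0.144), without the tumour block, with total-count scaling and in the joint fit, over a range of 0.000458 to 0.351 in 12 alternatives. The Hspb1 call in EMT6 was lost without the tumour block and in the joint fit. Hspb8, which acts with the co-chaperone Bag3 in delivering clients to autophagy, rose in 4T07 and D2A1. In 4T07, Hspb8 was at 284, 166, 195 and 208 CPM in p27K high libraries, against 156, 113, 124 and 118 CPM in p27K negative libraries. In D2A1, Hspb8 was at 112, 116, 131 and 97.7 CPM in p27K high libraries, against 78.0, 88.9, 64.2 and 84.7 CPM in p27K negative libraries. In EMT6, Hspb8 was at 184, 151, 163 and 148 CPM in p27K high libraries, against 163, 144, 156 and 131 CPM in p27K negative libraries. Hspb8 values of p27K high libraries lay above every p27K negative library in 4T07 and D2A1. The Hspb8 groups overlapped in EMT6, with p27K high above p27K negative in 4 of 4 tumours in EMT6. For Hspb8 the log2 change was 0.72 ± 0.083 in 4T07, 0.51 ± 0.14 in D2A1 and 0.12 ± 0.046 in EMT6, with adjusted p-values of 0.000494, 0.0141 and 0.0537 in that order. The Hspb8 call in D2A1 was lost without tumour 1 (adjusted p = 0.0668), over a range of 0.000208 to 0.0668 in 13 alternatives. The Hspb8 call in EMT6 was gained with RLE scaling and with the stricter filter. Hspb7, a small heat-shock gene of heart and muscle, had counts enough for a test in 4T07 alone, where it rose. In 4T07, Hspb7 was at 5.55, 4.42, 6.22 and 2.31 CPM in p27K high libraries, against 1.31, 0.473, 2.00 and 0.494 CPM in p27K negative libraries. In EMT6, Hspb7 was at 4.74, 0.295, 0.349 and 0.0582 CPM in p27K high libraries, against 0, 0.0587, 0.0576 and 0.409 CPM in p27K negative libraries. In D2A1 it had at most 2 counts in a library. Hspb7 had a log2 change of 2.24 ± 0.30 in 4T07 (adjusted p = 0.000940). The 4T07 groups of Hspb7 stood apart, with p27K high above in 4 of 4 tumours. Hspb11 carries the family's symbol, but its protein is a part of the intraflagellar transport machinery of cilia and is not assigned to a chaperone compartment here. In 4T07, Hspb11 was at 21.2, 61.2, 23.1 and 22.2 CPM in p27K high libraries, against 12.5, 18.1, 16.4 and 18.8 CPM in p27K negative libraries. In D2A1, Hspb11 was at 15.6, 18.8, 32.2 and 17.2 CPM in p27K high libraries, against 15.6, 14.97, 13.3 and 14.2 CPM in p27K negative libraries. In EMT6, Hspb11 was at 24.7, 21.8, 26.8 and 22.8 CPM in p27K high libraries, against 21.0, 20.1, 20.7 and 18.5 CPM in p27K negative libraries. All p27K high Hspb11 values lay above every p27K negative library in 4T07 and EMT6. The Hspb11 groups overlapped in D2A1, with p27K high above p27K negative in 3 of 4 tumours in D2A1. For Hspb11 the log2 change was 0.81 ± 0.23 in 4T07, 0.45 ± 0.20 in D2A1 and 0.26 ± 0.072 in EMT6, with adjusted p-values of 0.0253, 0.114 and 0.0140 in that order. The Hspb11 call in 4T07 was lost without tumour 1 (adjusted p = 0.0868) and without the tumour block, over a range of 0.00113 to 0.0868 in 12 alternatives. The Hspb11 call in D2A1 was gained with no filter on low counts. The Hspb11 call in EMT6 was lost without tumour 2 or 4 (adjusted p = 0.0823 and 0.0632), with DESeq2 and in the joint fit, over a range of 0.00878 to 0.316 in 12 alternatives.

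J-domain proteins of the DNAJA and DNAJB classes bind clients themselves, and those of the cytosol serve the cytosolic HSP70s. Dnaja1 and Dnaja2, both general partners of Hspa8, rose in 4T07 and fell in EMT6. In 4T07, Dnaja1 was at 205, 218, 152 and 171 CPM in p27K high libraries, against 155, 139.7, 128 and 126 CPM in p27K negative libraries. In D2A1, Dnaja1 was at 344, 332, 302 and 269 CPM in p27K high libraries, against 327, 338, 276 and 254 CPM in p27K negative libraries. In EMT6, Dnaja1 was at 526, 370.5, 374 and 300.4 CPM in p27K high libraries, against 602, 399, 400.4 and 334 CPM in p27K negative libraries. The Dnaja1 groups overlapped in each line, with p27K high above p27K negative in 4 of 4 tumours in 4T07, 3 of 4 in D2A1 and 0 of 4 in EMT6. For Dnaja1 the log2 change was 0.44 ± 0.086 in 4T07, 0.065 ± 0.11 in D2A1 and -0.14 ± 0.041 in EMT6, with adjusted p-values of 0.00551, 0.696 and 0.0194 in that order. The Dnaja1 call in EMT6 was lost without tumour 1, 2 or 4 (adjusted p = 0.0525, 0.0646 and 0.0900), without the tumour block and in the joint fit, over a range of 0.0119 to 0.622 in 12 alternatives. Dnaja2 measured 145, 230.4, 131 and 160.2 CPM in the p27K high libraries of 4T07, against 107, 138, 114 and 137 CPM in its p27K negative libraries. Dnaja2 measured 333, 326, 366 and 282 CPM in the p27K high libraries of D2A1, against 419.5, 388, 397 and 384 CPM in its p27K negative libraries. Dnaja2 measured 216, 265, 297 and 251 CPM in the p27K high libraries of EMT6, against 312, 309.6, 331 and 291 CPM in its p27K negative libraries. Dnaja2 in p27K high libraries lay below every p27K negative library in D2A1. The Dnaja2 groups overlapped in 4T07 and EMT6, with p27K high above p27K negative in 4 of 4 tumours in 4T07 and 0 of 4 in EMT6. Dnaja2 had a log2 change of 0.40 ± 0.11 in 4T07 (adjusted p = 0.0183), -0.29 ± 0.11 in D2A1 (adjusted p = 0.0681) and -0.28 ± 0.063 in EMT6 (adjusted p = 0.00506). The Dnaja2 call in 4T07 was lost without tumour 1 (adjusted p = 0.0879), without the tumour block and with total-count scaling, over a range of 0.00130 to 0.0901 in 12 alternatives. The Dnaja2 call in D2A1 was gained without tumour 3 (adjusted p = 0.00209) and with total-count scaling, over a range of 0.00209 to 0.361 in 13 alternatives.

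Dnajb1, the main stress-induced J-protein of the cytosol, rose in 4T07 and EMT6. Dnajb1 measured 518, 255, 340 and 322 CPM in the p27K high libraries of 4T07, against 353, 206, 267 and 211 CPM in its p27K negative libraries. Dnajb1 measured 714, 658, 645 and 521 CPM in the p27K high libraries of D2A1, against 569, 644, 442 and 536 CPM in its p27K negative libraries. Dnajb1 measured 791, 456, 475 and 415 CPM in the p27K high libraries of EMT6, against 630.5, 396, 370 and 285 CPM in its p27K negative libraries. The Dnajb1 groups overlapped in each line, with p27K high above p27K negative in 4 of 4 tumours in 4T07, 3 of 4 in D2A1 and 4 of 4 in EMT6. Dnajb1 had a log2 change of 0.45 ± 0.083 in 4T07 (adjusted p = 0.00400), 0.21 ± 0.13 in D2A1 (adjusted p = 0.227) and 0.36 ± 0.055 in EMT6 (adjusted p = 0.000603). The Dnajb1 call in 4T07 was lost without the tumour block. The Dnajb1 call in D2A1 was gained in the joint fit. The Dnajb1 call in EMT6 was lost without the tumour block. Dnajb4, its close relative in heart and muscle, rose in 4T07. In 4T07, Dnajb4 was at 171, 203, 123 and 148 CPM in p27K high libraries, against 104, 95.9, 76.6 and 93.1 CPM in p27K negative libraries. In D2A1, Dnajb4 was at 215, 214, 201 and 172 CPM in p27K high libraries, against 192, 222, 202 and 169.9 CPM in p27K negative libraries. In EMT6, Dnajb4 was at 89.9, 77.2, 77.7 and 79.3 CPM in p27K high libraries, against 90.9, 71.0, 66.4 and 60.6 CPM in p27K negative libraries. All p27K high Dnajb4 values lay above every p27K negative library in 4T07. The Dnajb4 groups overlapped in D2A1 and EMT6, with p27K high above p27K negative in 2 of 4 tumours in D2A1 and 3 of 4 in EMT6. For Dnajb4 the log2 change was 0.79 ± 0.094 in 4T07, 0.030 ± 0.11 in D2A1 and 0.18 ± 0.067 in EMT6, with adjusted p-values of 0.000590, 0.866 and 0.0507 in that order. The Dnajb4 call in EMT6 was gained without tumour 0 (adjusted p = 0.00140), with RLE scaling, with total-count scaling, with no filter on low counts and with the stricter filter, over a range of 0.00140 to 0.315 in 12 alternatives. Dnajb2, known from neurons, where it guides ubiquitinated clients to the proteasome, rose in all 3 lines. Dnajb2 measured 53.9, 33.3, 49.4 and 54.0 CPM in the p27K high libraries of 4T07, against 38.7, 33.2, 31.5 and 34.6 CPM in its p27K negative libraries. Dnajb2 measured 72.4, 75.4, 97.4 and 73.2 CPM in the p27K high libraries of D2A1, against 46.0, 55.2, 62.6 and 49.6 CPM in its p27K negative libraries. Dnajb2 measured 51.6, 48.6, 45.6 and 46.4 CPM in the p27K high libraries of EMT6, against 39.7, 41.2, 36.4 and 38.3 CPM in its p27K negative libraries. Dnajb2 in p27K high libraries lay above every p27K negative library in D2A1 and EMT6. The Dnajb2 groups overlapped in 4T07, with p27K high above p27K negative in 4 of 4 tumours in 4T07. Dnajb2 had a log2 change of 0.44 ± 0.13 in 4T07 (adjusted p = 0.0234), 0.57 ± 0.12 in D2A1 (adjusted p = 0.00268) and 0.31 ± 0.054 in EMT6 (adjusted p = 0.00129). The Dnajb2 call in 4T07 was lost without tumour 1, 3 or 4 (adjusted p = 0.1, 0.101 and 0.105) and with total-count scaling, over a range of 3.98e-05 to 0.112 in 12 alternatives.

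Dnajc9 had the largest fall of any member in D2A1 and EMT6. It is both an HSP70 partner and a chaperone of histones H3 and H4 (chr14:20384638-20388910, minus strand). Its mean was 16.4 ± 2.96 CPM in p27K high and 69.3 ± 9.46 CPM in p27K negative cells of 4T07, 28.5 ± 6.52 and 77.2 ± 3.75 CPM in D2A1, and 15.3 ± 1.42 and 72.5 ± 9.82 CPM in EMT6 (SD, n = 4 each). Dnajc9 measured 12.8, 19.9, 15.7 and 17.1 CPM in the p27K high libraries of 4T07, against 59.8, 77.3, 62.6 and 77.7 CPM in its p27K negative libraries. Dnajc9 measured 24.7, 24.6, 38.2 and 26.5 CPM in the p27K high libraries of D2A1, against 72.8, 76.7, 81.9 and 77.3 CPM in its p27K negative libraries. Dnajc9 measured 16.8, 14.0, 16.3 and 14.3 CPM in the p27K high libraries of EMT6, against 85.4, 62.8, 74.5 and 67.4 CPM in its p27K negative libraries. Dnajc9 in p27K high libraries lay below every p27K negative library in all 3 lines. Dnajc9 had a log2 change of -2.09 ± 0.094 in 4T07 (adjusted p = 3.35e-06), -1.47 ± 0.13 in D2A1 (adjusted p = 2.41e-06) and -2.24 ± 0.060 in EMT6 (adjusted p = 4.25e-09). In all 12 tumours the p27K high library was below its p27K negative partner. The cycling-cell markers summed above fell in the same libraries, and their part in this difference was not tested. An element of E2F factors, TTTCCCGC or TTTGGCGC on either strand, stood in the 250 bases before the start of 407 of 27025 genes (1.51%) and, among the members with a RefSeq entry, of Dnajb9, Dnajc19 and Dnajc5g. The window of Dnajc9 itself held none. Only exact matches within the windows were counted, so a lack of E2F elements in Dnajc9 cannot be read from this search.

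Of the cytosolic members not yet named, the synaptic vesicle J-protein Dnajc5 rose in 4T07 (0.43), D2A1 (0.31) and EMT6 (0.28). Dnajc27, a small GTPase with a J-domain, rose in 4T07 (0.40) and EMT6 (0.29), and Dnajc21, a factor of ribosome assembly, in 4T07 (0.60). Dnajc8, a splicing factor partner, fell in D2A1 (-0.54) and EMT6 (-0.36), as did Dnajc13 of endosomes (-0.55 and -0.21). Dnajc7, which binds both HSP70 and HSP90, fell in EMT6 (-0.19), and so did Hspa12a (-0.32).

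In the ER, Hspa5 (BiP) is the HSP70, Hsp90b1 (GRP94) the HSP90, and Dnajb9, Dnajb11, Dnajc3 and Dnajc10 are J-proteins of the lumen. The best known element of the unfolded protein response is the ER stress element, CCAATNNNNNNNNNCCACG, bound by NF-Y and ATF6. It was searched on both strands in the 250 bases before each RefSeq start (GRCm38.p6), for which 58 of the 72 members had an entry. It stood in 35 of 27025 genes (0.13%), and among the members in Hspa5, Hsp90b1 and Dnajc3. The promoters of these 3 are shown because their genes are compared next, with the element in capitals, written 5′ to 3′ on the strand of the gene: Hspa5 at chr2:34771840-34772089 (plus strand), Hsp90b1 at chr10:86705445-86705694 (minus strand, with 2 elements on opposite strands) and Dnajc3 at chr14:118937682-118937931 (plus strand). Neither of the other motifs searched stood in these windows.
Hspa5: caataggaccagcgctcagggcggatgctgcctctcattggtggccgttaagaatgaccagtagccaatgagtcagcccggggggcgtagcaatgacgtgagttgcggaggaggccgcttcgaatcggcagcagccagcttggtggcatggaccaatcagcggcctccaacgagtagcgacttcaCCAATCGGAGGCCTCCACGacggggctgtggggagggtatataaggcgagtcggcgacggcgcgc
Hsp90b1: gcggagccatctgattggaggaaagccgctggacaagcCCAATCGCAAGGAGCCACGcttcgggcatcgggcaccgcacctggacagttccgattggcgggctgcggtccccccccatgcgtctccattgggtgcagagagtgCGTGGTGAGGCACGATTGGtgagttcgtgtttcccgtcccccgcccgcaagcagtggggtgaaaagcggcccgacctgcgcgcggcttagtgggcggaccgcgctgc
Dnajc3: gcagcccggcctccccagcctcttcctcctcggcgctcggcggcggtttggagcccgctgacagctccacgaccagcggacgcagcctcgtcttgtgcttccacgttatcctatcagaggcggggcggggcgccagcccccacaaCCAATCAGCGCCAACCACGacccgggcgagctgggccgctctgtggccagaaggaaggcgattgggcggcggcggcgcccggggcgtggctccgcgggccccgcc

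**Figure D4:**
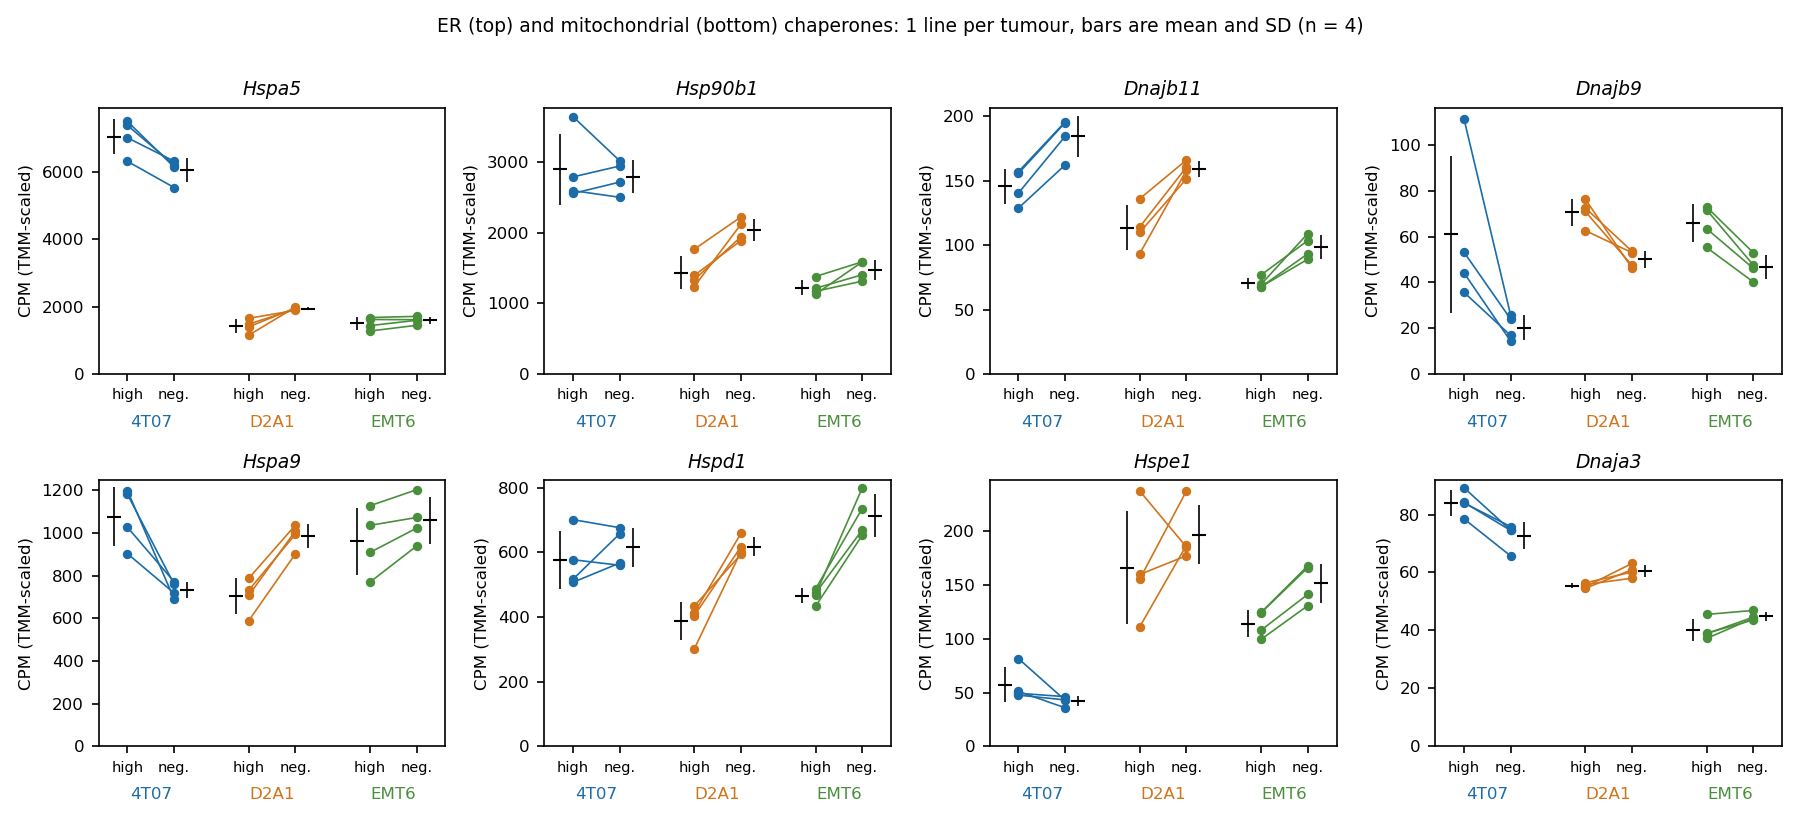
Each line joins the p27K high (left) and p27K negative (right) library of a tumour for 4 ER members (top) and 4 mitochondrial members (bottom) in CPM, with mean and SD (n = 4) in black. Dnajb9 is up and Dnajb11 down in all 12 p27K high libraries, and Hspa9 is up in 4 of 4 tumours of 4T07 and down in 8 of 8 of the other lines.

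These 3 genes did not move as a block. Hspa5 rose in 4T07 and fell in D2A1, Hsp90b1 fell in D2A1 and EMT6, and Dnajc3, which also inhibits the stress kinase PERK, fell in EMT6. In 4T07, Hspa5 was at 7391, 7024, 6323 and 7509 CPM in p27K high libraries, against 6219, 6328, 5544 and 6152 CPM in p27K negative libraries. In D2A1, Hspa5 was at 1398, 1481, 1653 and 1152 CPM in p27K high libraries, against 1963, 1927, 1890 and 1985 CPM in p27K negative libraries. In EMT6, Hspa5 was at 1618, 1436, 1676 and 1275 CPM in p27K high libraries, against 1612, 1594, 1711 and 1445 CPM in p27K negative libraries. All p27K high Hspa5 values lay below every p27K negative library in D2A1. The Hspa5 groups overlapped in 4T07 and EMT6, with p27K high above p27K negative in 4 of 4 tumours in 4T07 and 1 of 4 in EMT6. For Hspa5 the log2 change was 0.22 ± 0.069 in 4T07, -0.46 ± 0.12 in D2A1 and -0.088 ± 0.044 in EMT6, with adjusted p-values of 0.0351, 0.0126 and 0.123 in that order. The Hspa5 call in 4T07 was lost without tumour 1, 3 or 4 (adjusted p = 0.149, 0.111 and 0.155), without the tumour block and with total-count scaling, over a range of 0.00306 to 0.389 in 12 alternatives. The Hspa5 call in D2A1 was lost without tumour 1, 2 or 4 (adjusted p = 0.0988, 0.0662 and 0.0770), over a range of 7.35e-05 to 0.0988 in 13 alternatives. The Hspa5 call in EMT6 was gained without tumour 0 (adjusted p = 0.0155), over a range of 0.0155 to 0.554 in 12 alternatives. In 4T07, Hsp90b1 was at 2599, 3648, 2559 and 2794 CPM in p27K high libraries, against 2505, 3023, 2720 and 2948 CPM in p27K negative libraries. In D2A1, Hsp90b1 was at 1335, 1396, 1768 and 1238 CPM in p27K high libraries, against 1944, 1890, 2225 and 2122 CPM in p27K negative libraries. In EMT6, Hsp90b1 was at 1130, 1171, 1381 and 1215 CPM in p27K high libraries, against 1587, 1315, 1589 and 1405 CPM in p27K negative libraries. All p27K high Hsp90b1 values lay below every p27K negative library in D2A1. The Hsp90b1 groups overlapped in 4T07 and EMT6, with p27K high above p27K negative in 2 of 4 tumours in 4T07 and 0 of 4 in EMT6. For Hsp90b1 the log2 change was 0.040 ± 0.085 in 4T07, -0.52 ± 0.12 in D2A1 and -0.27 ± 0.056 in EMT6, with adjusted p-values of 0.730, 0.00466 and 0.00332 in that order. The Hsp90b1 call in D2A1 was lost without tumour 1 (adjusted p = 0.0567), over a range of 2.65e-05 to 0.0567 in 13 alternatives. In 4T07, Dnajc3 was at 205, 315, 228 and 289 CPM in p27K high libraries, against 266, 306, 232 and 279 CPM in p27K negative libraries. In D2A1, Dnajc3 was at 166, 178, 154 and 160.4 CPM in p27K high libraries, against 219.8, 163, 208 and 203 CPM in p27K negative libraries. In EMT6, Dnajc3 was at 164, 153, 155 and 146 CPM in p27K high libraries, against 247, 182, 192 and 186 CPM in p27K negative libraries. All p27K high Dnajc3 values lay below every p27K negative library in EMT6. The Dnajc3 groups overlapped in 4T07 and D2A1, with p27K high above p27K negative in 2 of 4 tumours in 4T07 and 1 of 4 in D2A1. For Dnajc3 the log2 change was -0.076 ± 0.094 in 4T07, -0.26 ± 0.12 in D2A1 and -0.38 ± 0.060 in EMT6, with adjusted p-values of 0.540, 0.128 and 0.000714 in that order.

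Dnajb9 and Dnajb11 went in opposite directions in every line. Dnajb9 (ERdj4, chr12:44205559-44210326, minus strand), which keeps BiP bound to the stress sensor IRE1, rose. Its mean in 4T07 was 61.2 ± 34.3 CPM in p27K high and 20.2 ± 5.49 CPM in p27K negative cells (SD, n = 4). The fold change of the edgeR fit there was 2.82. Dnajb11 (ERdj3), a secreted cofactor of BiP, fell. Dnajb9 measured 44.2, 112, 35.7 and 53.2 CPM in the p27K high libraries of 4T07, against 14.3, 25.7, 16.8 and 23.98 CPM in its p27K negative libraries. Dnajb9 measured 71.1, 76.5, 72.7 and 62.7 CPM in the p27K high libraries of D2A1, against 47.5, 46.3, 53.7 and 53.1 CPM in its p27K negative libraries. Dnajb9 measured 73.1, 63.6, 71.8 and 55.3 CPM in the p27K high libraries of EMT6, against 53.1, 46.2, 47.7 and 40.3 CPM in its p27K negative libraries. Dnajb9 in p27K high libraries lay above every p27K negative library in all 3 lines. Dnajb9 had a log2 change of 1.497 ± 0.18 in 4T07 (adjusted p = 0.000551), 0.48 ± 0.13 in D2A1 (adjusted p = 0.0127) and 0.49 ± 0.051 in EMT6 (adjusted p = 5.11e-05). The Dnajb9 call in D2A1 was lost without tumour 1 or 2 (adjusted p = 0.0724 and 0.106) and after thinning to equal depth, over a range of 0.00120 to 0.186 in 13 alternatives. In 4T07, Dnajb11 was at 140.5, 157, 129 and 156 CPM in p27K high libraries, against 184, 196, 162 and 195 CPM in p27K negative libraries. In D2A1, Dnajb11 was at 109.9, 114, 136 and 93.4 CPM in p27K high libraries, against 152, 160.5, 166 and 158 CPM in p27K negative libraries. In EMT6, Dnajb11 was at 69.6, 67.6, 76.8 and 67.7 CPM in p27K high libraries, against 109, 93.3, 104 and 89.1 CPM in p27K negative libraries. Dnajb11 values of p27K high libraries lay below every p27K negative library in all 3 lines. For Dnajb11 the log2 change was -0.34 ± 0.070 in 4T07, -0.51 ± 0.12 in D2A1 and -0.48 ± 0.055 in EMT6, with adjusted p-values of 0.00633, 0.00559 and 8.85e-05 in that order. The Dnajb11 call in 4T07 was lost without tumour 1 (adjusted p = 0.0550), over a range of 0.000311 to 0.0550 in 12 alternatives.

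Dnajc10 (ERdj5), a disulfide reductase that prepares misfolded proteins for degradation, fell in D2A1 and EMT6. In 4T07, Dnajc10 was at 233, 291, 223 and 317 CPM in p27K high libraries, against 269.9, 338, 272 and 304 CPM in p27K negative libraries. In D2A1, Dnajc10 was at 252, 239, 233 and 254 CPM in p27K high libraries, against 324, 280.2, 364 and 306 CPM in p27K negative libraries. In EMT6, Dnajc10 was at 157, 169, 153 and 169 CPM in p27K high libraries, against 206, 204, 194 and 204 CPM in p27K negative libraries. Dnajc10 values of p27K high libraries lay below every p27K negative library in D2A1 and EMT6. The Dnajc10 groups overlapped in 4T07, with p27K high above p27K negative in 1 of 4 tumours in 4T07. For Dnajc10 the log2 change was -0.16 ± 0.084 in 4T07, -0.38 ± 0.12 in D2A1 and -0.32 ± 0.045 in EMT6, with adjusted p-values of 0.147, 0.0263 and 0.000342 in that order. The Dnajc10 call in 4T07 was gained with total-count scaling. The Dnajc10 call in D2A1 was lost without tumour 1, 2 or 4 (adjusted p = 0.119, 0.0798 and 0.0515), with no filter on low counts and after thinning to equal depth, over a range of 0.00777 to 0.119 in 13 alternatives. Hspa13, an HSP70-like ATPase of microsomes, fell in EMT6. Hspa13 measured 155, 242, 147 and 195 CPM in the p27K high libraries of 4T07, against 156, 183, 147 and 174 CPM in its p27K negative libraries. Hspa13 measured 109.9, 103, 71.9 and 109.5 CPM in the p27K high libraries of D2A1, against 108, 111, 133 and 127 CPM in its p27K negative libraries. Hspa13 measured 68.7, 52.2, 53.0 and 46.3 CPM in the p27K high libraries of EMT6, against 103, 87.6, 78.5 and 79.2 CPM in its p27K negative libraries. Hspa13 in p27K high libraries lay below every p27K negative library in EMT6. The Hspa13 groups overlapped in 4T07 and D2A1, with p27K high above p27K negative in 3 of 4 tumours in 4T07 and 1 of 4 in D2A1. Hspa13 had a log2 change of 0.14 ± 0.092 in 4T07 (adjusted p = 0.257), -0.29 ± 0.15 in D2A1 (adjusted p = 0.154) and -0.67 ± 0.056 in EMT6 (adjusted p = 1.24e-05). Dnajc18, a membrane J-protein of the ER, rose in all 3 lines. In 4T07, Dnajc18 was at 40.3, 39.8, 45.6 and 41.5 CPM in p27K high libraries, against 27.3, 31.2, 33.8 and 32.3 CPM in p27K negative libraries. In D2A1, Dnajc18 was at 62.9, 59.5, 65.2 and 67.8 CPM in p27K high libraries, against 47.5, 40.7, 40.4 and 46.5 CPM in p27K negative libraries. In EMT6, Dnajc18 was at 35.9, 34.0, 32.0 and 30.8 CPM in p27K high libraries, against 24.4, 30.3, 26.7 and 29.6 CPM in p27K negative libraries. All p27K high Dnajc18 values lay above every p27K negative library in all 3 lines. For Dnajc18 the log2 change was 0.43 ± 0.087 in 4T07, 0.55 ± 0.12 in D2A1 and 0.26 ± 0.085 in EMT6, with adjusted p-values of 0.00637, 0.00457 and 0.0306 in that order. The Dnajc18 call in 4T07 was lost without tumour 1 (adjusted p = 0.0523), over a range of 0.000243 to 0.0523 in 12 alternatives. The Dnajc18 call in EMT6 was lost without tumour 0, 1 or 2 (adjusted p = 0.0571, 0.0577 and 0.103) and with DESeq2, over a range of 0.00869 to 0.103 in 12 alternatives. Of the ER members not yet named, Dnajc1, a membrane J-protein that binds BiP, rose in 4T07 (0.46) and EMT6 (0.18), and Dnajb14 rose in EMT6 (0.35). Dnajb12, Dnajc14 and Dnajc16 were called in no line.

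The mitochondrial matrix set is Hspa9 (mortalin), the HSP70 that also pulls proteins through the import channel, its J-proteins Dnaja3, Dnajc15 and Dnajc19, and the chaperonin pair Hspd1 and Hspe1. Hspd1 and Hspe1 lie head to head on chromosome 1 and share a promoter. A heat-shock element, written as GAANNTTCNNGAA or TTCNNGAANNTTC and searched on both strands of the same windows, stood in 139 of 27025 genes (0.514%), and among the members in Hspd1, Hspe1 and Dnajb6. Only exact matches were counted, so elements that depart from these letters or lie outside the windows were missed. The windows of Hspa1a, Hspa1b, Dnajb1, Hspb1 and Hsph1 held no exact match, and Hspa8, Hsp90aa1 and Hsp90ab1 had no window. A lack of heat-shock elements in these genes cannot be read from this search. The Hspe1 window at chr1:55087898-55088147 (plus strand) is shown because the match lies between the start of Hspe1 and a start of Hspd1, with 2 overlapping matches in capitals. RefSeq gives 2 windows for Hspd1 on the minus strand, of which chr1:55087933-55088182 holds the same match and chr1:55088244-55088493 holds none.
Hspe1: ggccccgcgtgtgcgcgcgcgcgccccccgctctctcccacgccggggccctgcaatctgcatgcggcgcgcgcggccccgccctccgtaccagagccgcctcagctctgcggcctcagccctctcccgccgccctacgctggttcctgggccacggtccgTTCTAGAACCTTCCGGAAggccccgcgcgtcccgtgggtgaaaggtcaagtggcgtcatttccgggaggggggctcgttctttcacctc

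Hspd1 and Hspe1 both fell in EMT6, Hspd1 alone passed the test for a fall in D2A1, and Hspe1 rose in 4T07. Hspd1 measured 577, 701, 507 and 517 CPM in the p27K high libraries of 4T07, against 559.8, 676, 567 and 657 CPM in its p27K negative libraries. Hspd1 measured 412, 404, 434 and 301 CPM in the p27K high libraries of D2A1, against 658, 617, 593 and 602 CPM in its p27K negative libraries. Hspd1 measured 469, 473, 486 and 433 CPM in the p27K high libraries of EMT6, against 798, 669, 735 and 652 CPM in its p27K negative libraries. Hspd1 in p27K high libraries lay below every p27K negative library in D2A1 and EMT6. The Hspd1 groups overlapped in 4T07, with p27K high above p27K negative in 2 of 4 tumours in 4T07. Hspd1 had a log2 change of -0.103 ± 0.091 in 4T07 (adjusted p = 0.388), -0.69 ± 0.12 in D2A1 (adjusted p = 0.000877) and -0.61 ± 0.050 in EMT6 (adjusted p = 9.98e-06). The Hspd1 call in 4T07 was gained with total-count scaling. In 4T07, Hspe1 was at 51.0, 81.5, 47.6 and 49.3 CPM in p27K high libraries, against 35.8, 42.8, 43.1 and 46.2 CPM in p27K negative libraries. In D2A1, Hspe1 was at 156, 159.9, 238 and 111 CPM in p27K high libraries, against 238, 177, 185 and 187 CPM in p27K negative libraries. In EMT6, Hspe1 was at 124, 108, 124 and 99.5 CPM in p27K high libraries, against 168, 141, 166 and 131 CPM in p27K negative libraries. All p27K high Hspe1 values lay above every p27K negative library in 4T07 and below every p27K negative library in EMT6. The Hspe1 groups overlapped in D2A1, with p27K high above p27K negative in 1 of 4 tumours in D2A1. For Hspe1 the log2 change was 0.42 ± 0.15 in 4T07, -0.30 ± 0.16 in D2A1 and -0.41 ± 0.043 in EMT6, with adjusted p-values of 0.0498, 0.190 and 5.65e-05 in that order. The Hspe1 call in 4T07 was lost without tumour 1, 3 or 4 (adjusted p = 0.172, 0.0566 and 0.0545), without the tumour block, with RLE scaling, with total-count scaling and with the stricter filter, over a range of 0.0166 to 0.172 in 12 alternatives. The Hspe1 call in D2A1 was gained without tumour 3 (adjusted p = 0.00122), over a range of 0.00122 to 0.605 in 13 alternatives.

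Hspa9 rose in 4T07 and fell in D2A1 and EMT6. In 4T07, Hspa9 was at 1180, 1197, 902 and 1026 CPM in p27K high libraries, against 759, 689.6, 718 and 771 CPM in p27K negative libraries. In D2A1, Hspa9 was at 731, 787, 706 and 589 CPM in p27K high libraries, against 993, 1036, 1009 and 902 CPM in p27K negative libraries. In EMT6, Hspa9 was at 769, 1035, 1127 and 908 CPM in p27K high libraries, against 938, 1072, 1202 and 1022 CPM in p27K negative libraries. Hspa9 values of p27K high libraries lay above every p27K negative library in 4T07 and below every p27K negative library in D2A1. The Hspa9 groups overlapped in EMT6, with p27K high above p27K negative in 0 of 4 tumours in EMT6. For Hspa9 the log2 change was 0.54 ± 0.096 in 4T07, -0.49 ± 0.11 in D2A1 and -0.15 ± 0.047 in EMT6, with adjusted p-values of 0.00333, 0.00436 and 0.0248 in that order. The Hspa9 call in EMT6 was lost without tumour 2 or 4 (adjusted p = 0.0689 and 0.103), without the tumour block and in the joint fit, over a range of 0.00212 to 0.402 in 12 alternatives. Dnaja3, a J-protein of the matrix, fell in EMT6 alone. In 4T07, Dnaja3 was at 84.2, 89.2, 78.5 and 84.0 CPM in p27K high libraries, against 74.5, 74.6, 65.7 and 75.8 CPM in p27K negative libraries. In D2A1, Dnaja3 was at 56.4, 55.8, 55.0 and 54.5 CPM in p27K high libraries, against 60.1, 58.0, 63.1 and 60.9 CPM in p27K negative libraries. In EMT6, Dnaja3 was at 39.0, 37.2, 45.5 and 38.8 CPM in p27K high libraries, against 43.6, 44.2, 46.9 and 44.6 CPM in p27K negative libraries. All p27K high Dnaja3 values lay above every p27K negative library in 4T07 and below every p27K negative library in D2A1. The Dnaja3 groups overlapped in EMT6, with p27K high above p27K negative in 0 of 4 tumours in EMT6. For Dnaja3 the log2 change was 0.21 ± 0.074 in 4T07, -0.13 ± 0.12 in D2A1 and -0.16 ± 0.057 in EMT6, with adjusted p-values of 0.0525, 0.452 and 0.0422 in that order. The Dnaja3 call in 4T07 was gained without tumour 2 (adjusted p = 0.0152), with DESeq2, with RLE scaling and in the joint fit, over a range of 0.0116 to 0.444 in 12 alternatives. The Dnaja3 call in EMT6 was lost without tumour 1, 2 or 4 (adjusted p = 0.156, 0.0585 and 0.157), without the tumour block, with DESeq2, with no filter on low counts, with the stricter filter and in the joint fit, over a range of 0.0367 to 0.174 in 12 alternatives. Dnajc19, a part of the import motor, fell in EMT6. Dnajc19 measured 7.73, 12.0, 9.93 and 8.46 CPM in the p27K high libraries of 4T07, against 11.0, 12.2, 11.5 and 13.2 CPM in its p27K negative libraries. Dnajc19 measured 26.6, 30.3, 51.3 and 28.2 CPM in the p27K high libraries of D2A1, against 40.8, 42.1, 44.3 and 40.3 CPM in its p27K negative libraries. Dnajc19 measured 18.5, 16.1, 17.6 and 17.8 CPM in the p27K high libraries of EMT6, against 22.2, 22.5, 21.8 and 21.2 CPM in its p27K negative libraries. Dnajc19 in p27K high libraries lay below every p27K negative library in EMT6. The Dnajc19 groups overlapped in 4T07 and D2A1, with p27K high above p27K negative in 0 of 4 tumours in 4T07 and 1 of 4 in D2A1. Dnajc19 had a log2 change of -0.34 ± 0.14 in 4T07 (adjusted p = 0.0853), -0.35 ± 0.15 in D2A1 (adjusted p = 0.105) and -0.32 ± 0.074 in EMT6 (adjusted p = 0.00545). The Dnajc19 call in 4T07 was gained without tumour 2 (adjusted p = 0.00730) and with total-count scaling, over a range of 0.00730 to 0.303 in 12 alternatives. The Dnajc19 call in D2A1 was gained without tumour 3 (adjusted p = 0.00276), over a range of 0.00276 to 0.355 in 13 alternatives. The Dnajc19 call in EMT6 was lost in the joint fit. Dnajc11, which sits at the cristae-organizing complex, fell in 4T07 and EMT6. Dnajc11 measured 53.5, 52.5, 49.6 and 53.2 CPM in the p27K high libraries of 4T07, against 61.4, 61.7, 56.4 and 66.4 CPM in its p27K negative libraries. Dnajc11 measured 145, 151, 215 and 136 CPM in the p27K high libraries of D2A1, against 100.2, 133, 136 and 130.3 CPM in its p27K negative libraries. Dnajc11 measured 35.2, 34.8, 33.4 and 31.7 CPM in the p27K high libraries of EMT6, against 41.7, 44.3, 42.3 and 37.2 CPM in its p27K negative libraries. Dnajc11 in p27K high libraries lay below every p27K negative library in 4T07 and EMT6. The Dnajc11 groups overlapped in D2A1, with p27K high above p27K negative in 4 of 4 tumours in D2A1. Dnajc11 had a log2 change of -0.23 ± 0.078 in 4T07 (adjusted p = 0.0419), 0.34 ± 0.13 in D2A1 (adjusted p = 0.0592) and -0.29 ± 0.057 in EMT6 (adjusted p = 0.00223). The Dnajc11 call in 4T07 was lost without tumour 1, 3 or 4 (adjusted p = 0.138, 0.124 and 0.176), without the tumour block, with DESeq2, with RLE scaling, with no filter on low counts and in the joint fit, over a range of 0.00778 to 0.176 in 12 alternatives. The Dnajc11 call in D2A1 was gained with no filter on low counts, after thinning to equal depth and in the joint fit. Dnajc15, the other J-protein of the import motor, fell in EMT6 (-0.24 ± 0.078, adjusted p = 0.0300), and Dnajc28 and Dnajc30 were called in no line.

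The 3 other unassigned members, beside Hspb11, are little studied. Dnajc22 fell in 4T07. Dnajc22 measured 15.4, 10.7, 17.4 and 13.3 CPM in the p27K high libraries of 4T07, against 20.4, 18.8, 21.0 and 16.6 CPM in its p27K negative libraries. Dnajc22 measured 18.3, 17.8, 25.4 and 16.7 CPM in the p27K high libraries of D2A1, against 16.3, 23.4, 23.2 and 22.7 CPM in its p27K negative libraries. Dnajc22 measured 20.2, 17.2, 18.4 and 19.2 CPM in the p27K high libraries of EMT6, against 17.6, 17.4, 17.6 and 19.6 CPM in its p27K negative libraries. The Dnajc22 groups overlapped in each line, with p27K high above p27K negative in 0 of 4 tumours in 4T07, 2 of 4 in D2A1 and 2 of 4 in EMT6. Dnajc22 had a log2 change of -0.45 ± 0.12 in 4T07 (adjusted p = 0.0210), -0.18 ± 0.17 in D2A1 (adjusted p = 0.461) and 0.054 ± 0.076 in EMT6 (adjusted p = 0.590). The Dnajc22 call in 4T07 was lost without tumour 1 or 4 (adjusted p = 0.0825 and 0.0510) and without the tumour block, over a range of 0.00641 to 0.0825 in 12 alternatives. Dnajc25 fell in D2A1 (-0.49 ± 0.15, adjusted p = 0.0259) and Dnajc4 in EMT6 (-0.25 ± 0.093, adjusted p = 0.0489).

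The gate change was then compared between lines in a joint fit of all 24 libraries with the 12 tumours as blocks. It differed between the 3 lines for 24 of 65 tested members (36.9%), against 24.5% of 13578 genes. By compartment these were 14 of 39 cytosolic or nuclear, 4 of 13 ER, 5 of 9 mitochondrial and 1 of 4 unassigned members. The change was higher in 4T07 than in D2A1 for 16 members and lower for 5, where 10.1% and 13.1% of all genes were higher or lower. It was higher in 4T07 than in EMT6 for 16 and lower for 1, where 7.55% and 7.47% of all genes were. Between D2A1 and EMT6, 2 members differed, both higher in D2A1, where 1.86% of all genes were higher and 1.58% lower. Without the tumour block 14 members and 11.8% of all genes differed.

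The smallest adjusted p was that of Hspa1a (1.458e-05), with the counting limit given above. Hspa9 followed (0.000101): its change in 4T07 was higher than in D2A1 by 1.00 (adjusted p = 4.856e-05) and than in EMT6 by 0.72 (adjusted p = 0.00140). The rise of Dnajb9 was larger in 4T07 than in D2A1 by 0.99 and than in EMT6 by 1.03 (adjusted p over the 3 lines = 0.00121), and the same held for Dnajb4 (0.73 and 0.63, adjusted p = 0.000951). Hsph1 differed by 0.58 from D2A1 and 0.63 from EMT6 (adjusted p = 0.00193, which was lost without the tumour block), and Hspd1 by 0.55 and 0.53 (adjusted p = 0.00894). Dnaja2 differed by 0.66 and 0.70 in the same order (adjusted p = 0.00197). Dnajc9 and Dnajc11 were the members that differed between D2A1 and EMT6: the log2 change of Dnajc9 was higher in D2A1, where its fall was smaller, by 0.82 (adjusted p = 0.00255), and that of Dnajc11 by 0.68 (adjusted p = 0.00801). Hspa12a also differed, from at most 15 counts in a 4T07 library and 7 in a D2A1 library, too few for a test in either line alone. Each change is taken within a tumour. Lines and runs were the same split, so line and run cannot be told apart in these differences of the change either.

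**Figure D5:**
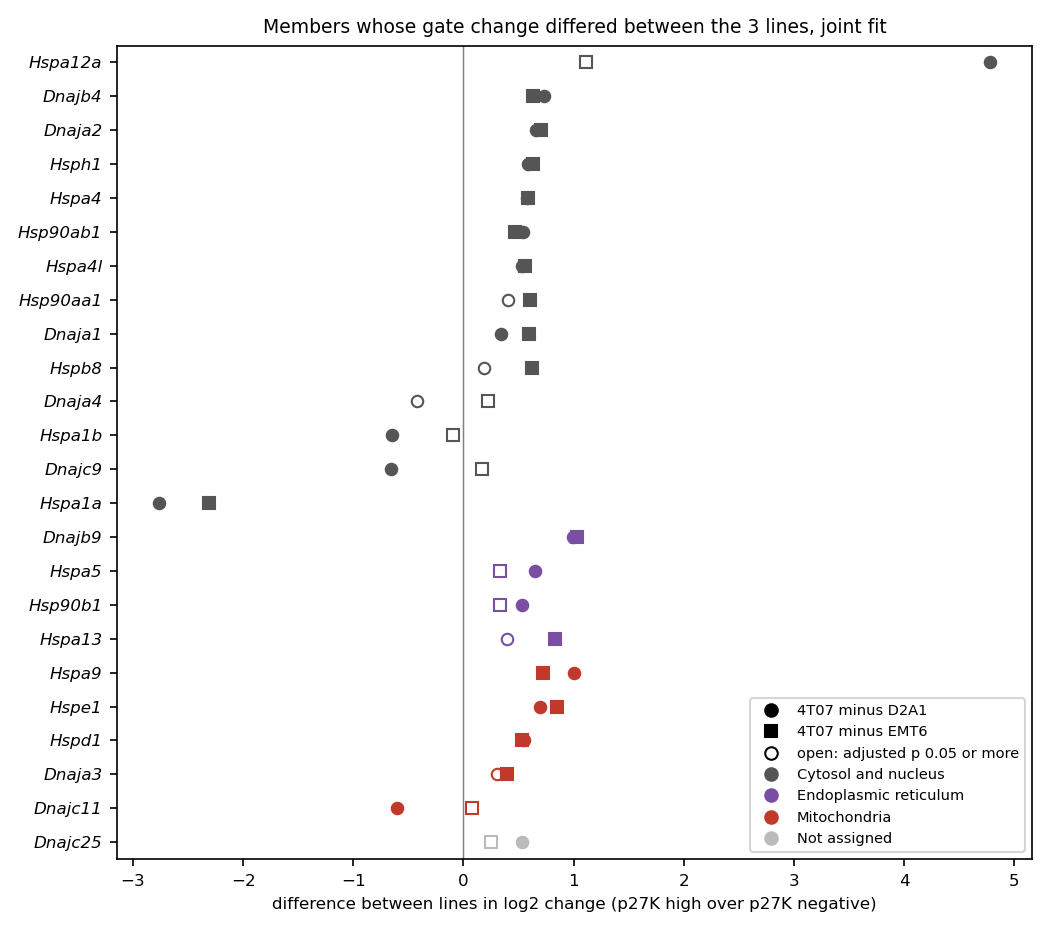
Points give, for the 24 members whose change differed between the lines (joint fit), the log2 change in 4T07 minus that in D2A1 (circles) or EMT6 (squares), filled where that pair differed at an adjusted p under 0.05. All 4 ER members and 4 of 5 mitochondrial members lie right of 0, and Hspa1a lies farthest left.

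Other genes of the same pathways were read from 4 lists of genes that are no members. Of all tested genes, 22.1% rose and 23.6% fell in 4T07, 14.9% and 14.7% in D2A1, and 24.1% and 25.1% in EMT6. The counts of each list are to be read against these shares, and whether a list departs from them was not tested. Of 24 heat-shock factors and co-chaperones, 8 rose and 5 fell in 4T07, 3 rose and 6 fell in D2A1 and 1 rose and 14 fell in EMT6. Their medians were 0.094, -0.11 and -0.18 in that order. The small heat-shock protein gene Cryab rose in 4T07 (0.82 ± 0.105), D2A1 (1.16 ± 0.18) and EMT6 (0.61 ± 0.093), with a mean in D2A1 of 159 CPM in p27K high and 67.5 CPM in p27K negative cells. St13, which joins HSP70 to HSP90, was the second largest rise in 4T07 (0.50 ± 0.13), and Unc45a, a myosin co-chaperone, in D2A1 (0.44 ± 0.13). The HSP70 to HSP90 adaptor Stip1 fell in D2A1 (-0.72 ± 0.11) and EMT6 (-0.73 ± 0.048). Ptges3, the HSP90 cofactor p23, fell in D2A1 (-0.61 ± 0.11) and Ahsa1, which drives the HSP90 ATPase, in EMT6 (-0.83 ± 0.049). The largest falls in 4T07 were the immunophilin gene Fkbp5 (-0.76 ± 0.074) and the HSP70 nucleotide exchange factor Hspbp1 (-0.72 ± 0.14).

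Of 14 genes of the cytosolic chaperonin CCT and of prefoldin, which folds actin and tubulin with it, 2 rose and 2 fell in 4T07, 0 rose and 10 fell in D2A1 and 1 rose and 13 fell in EMT6. Over all genes, 22.1% rose and 23.6% fell in 4T07, 14.9% and 14.7% in D2A1, and 24.1% and 25.1% in EMT6. The medians of the list were 0.092, -0.42 and -0.29. In D2A1, edgeR had 1 of them higher at an unadjusted p under 0.05, and DESeq2 called 1 rise; in 4T07 DESeq2 called 1 fall. The prefoldin subunit gene Vbp1 rose in 4T07 (0.42 ± 0.095) and had the largest fall of the list in D2A1 (-0.69 ± 0.12) and EMT6 (-0.51 ± 0.045). Pfdn5 rose in 4T07 (0.44 ± 0.078) and EMT6 (0.33 ± 0.051), while Pfdn6 fell in 4T07 (-0.53 ± 0.097) and EMT6 (-0.42 ± 0.055). Among the CCT subunits, Cct3 fell in 4T07 (-0.20 ± 0.069) and Cct6a in D2A1 (-0.64 ± 0.11).

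Of 23 other genes of ER folding and the unfolded protein response, 6 rose and 6 fell in 4T07, 1 rose and 8 fell in D2A1 and 6 rose and 12 fell in EMT6, with medians of 0.18, -0.24 and -0.18. Over all genes, 22.1% rose and 23.6% fell in 4T07, 14.9% and 14.7% in D2A1, and 24.1% and 25.1% in EMT6. By DESeq2, 10 genes of the list rose and 7 fell in 4T07, where 23.8% and 24.2% of all genes did. In EMT6, 4 rose and 11 fell by DESeq2, where 19.7% and 20.8% of all genes did. The disulfide oxidase gene Ero1l, also known as a hypoxia target, had the largest rise of the list in each line (1.83 ± 0.14 in 4T07, 1.58 ± 0.14 in D2A1 and 0.82 ± 0.058 in EMT6), with 984 CPM in p27K high and 267 CPM in p27K negative cells in 4T07. Ddit3 (CHOP) rose in 4T07 (0.62 ± 0.098) and EMT6 (0.47 ± 0.089). Sdf2l1, a partner of Dnajb11, fell in 4T07 (-0.79 ± 0.12) and EMT6 (-0.85 ± 0.085), and Creld2, an ER stress-induced disulfide isomerase, fell in all 3 lines (-0.54 ± 0.083, -0.84 ± 0.15 and -0.70 ± 0.056). In D2A1 the ER stress-induced factor Manf fell by a like amount (-0.77 ± 0.16).

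Of 13 mitochondrial folding factors and proteases, 3 rose and 3 fell in 4T07, 0 rose and 1 fell in D2A1 and 1 rose and 4 fell in EMT6, with medians of 0.13, -0.014 and -0.080. Over all genes, 22.1% rose and 23.6% fell in 4T07, 14.9% and 14.7% in D2A1, and 24.1% and 25.1% in EMT6. The D2A1 rises of the list numbered 2 at an unadjusted p under 0.05 and 0 by DESeq2, which called 0 falls there as well. The serine protease gene Htra2 fell in each line (-1.16 ± 0.21, -0.38 ± 0.12 and -0.36 ± 0.051), in D2A1 by edgeR but not by DESeq2, and the mitochondrial HSP90 gene Trap1 in 4T07 (-0.34 ± 0.080) and EMT6 (-0.30 ± 0.056). The inner membrane proteases Yme1l1 (0.60 ± 0.12) and Afg3l2 (0.42 ± 0.084) rose in 4T07, and Atf5, a regulator of the mitochondrial stress response, rose in EMT6 (0.21 ± 0.047).

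Warm digestion of tissue is known to raise early-response genes and heat-shock genes, and 12 early-response genes were read beside the members. Of these, 4 rose and 1 fell in 4T07, 8 rose and 0 fell in D2A1 and 11 rose and 0 fell in EMT6. Over all genes, 22.1% rose and 23.6% fell in 4T07, 14.9% and 14.7% in D2A1, and 24.1% and 25.1% in EMT6. By DESeq2, and at an unadjusted p under 0.05 in edgeR, 0 of the 12 early-response genes fell in D2A1 and EMT6 as well. Their summed level was 8824 to 10976 CPM in p27K high against 8712 to 10204 CPM in p27K negative libraries of 4T07, 8397 to 9933 against 6079 to 7321 CPM in D2A1, and 9386 to 12766 against 8265 to 9437 CPM in EMT6. Dusp1, a phosphatase gene of this list, rose in each line (0.51 ± 0.090, 0.99 ± 0.11 and 0.70 ± 0.101), Egr1 fell in 4T07 (-0.42 ± 0.078), and the second largest rises were Btg2 in 4T07 (0.33 ± 0.089) and EMT6 (0.44 ± 0.082) and Ier3 in D2A1 (0.97 ± 0.13). Both gates of a tumour went through 1 digestion, per the labels' protocols, and its part in the chaperone results was not tested.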

How the data were processed

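Gene counts were deposited by the authors as whole numbers without normalization, 1 table for each line; GENEWIZ made them, per the labels' protocols. The submitters' processing notes name mm10 and DESeq2. The sources used here name no library kit, strand setting, aligner or counter, so reads of near-identical copies and of overlapping or antisense genes may be misassigned. Tumours were dissociated with collagenase IV, hyaluronidase and DNase, and cells were sorted with CD45 and DAPI staining, per the labels' protocols. The D2A1 and EMT6 tables held 49316 entries each, of which a totals entry, 176 blank names (at most 0.0109% of a library) and 12 pseudogenes with member symbols were left out. The 4T07 table held 24982 entries. From each table, 4 entries with a date for a symbol were left out. All count columns were used.

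Each line was fitted with edgeR 4.0.16 (R 4.3.3) with TMM scaling, filterByExpr and tumour blocks. Genes were called by the quasi-likelihood test at a Benjamini-Hochberg adjusted p under 0.05 over all genes tested. Standard errors are the change over the square root of F. A joint fit of 24 libraries with 12 tumours as blocks tested whether the change differed between lines. CPM per kilobase uses the summed exons of GENCODE vM21 (mm10), which also gives gene coordinates, counted from 1; all 72 members matched. Medians by tumour use log2 of CPM plus 0.5.

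The labels pair both gates of a tumour. EMT6 column names are numbered 0, 1, 2 and 4 whereas titles run from 1 to 4, and pairs follow the column names. Deviations of same-numbered libraries correlated at 0.615, 0.574, 0.814 and 0.648 in EMT6, 0.802, 0.703, 0.609 and 0.195 in 4T07, and 0.112, 0.21, 0.0835 and 0.294 in D2A1 (5000 genes). P-values rest on how the gate difference varies from tumour to tumour, and errors do not cover reads copied by PCR.

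Members, lists and compartments were chosen with earlier results of these data known. Described in full are 23 core members, per line the 4 largest rises and falls among called members, and the 8 members with the smallest p for the difference between lines; of each pathway list, the 2 largest called rises and falls per line are named. Other named genes were chosen after their values were seen. Alternatives were a fit without the tumour block, DESeq2 1.42.0, other scalings and filters, leaving out each tumour, the joint fit and, chosen after seeing the data, Hspa1a and Hspa1b summed and D2A1 thinned to equal depth. The procedure was tested on simulated data. These held no differences between tumours, so they did not test how the tumour block handles such differences.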

Additional observations from a re-analysis of the deposited data

Results flagged for a closer look

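Single libraries far from the others of their group were looked for in 210 groups of 4 libraries, 36 members by line and gate, with Dixon's 95% critical value, by which chance marks about 1 in 20 groups. Of these, 17 were marked. In 4T07, 4 fell on the p27K high library of tumour 2, the one with the fewest detected genes, each high: Dnajc2 at 116 CPM, Hspa4 at 519 CPM, Hspb11 at 61.2 CPM and Hspe1 at 81.5 CPM, where the other 3 libraries reached at most 57.9, 319.6, 23.1 and 51.0 CPM. The others in 4T07 were Hspa1a at 2.09 CPM in p27K high cells of tumour 1, Hspb1 at 65.3 CPM in p27K negative cells of tumour 1 and Dnaja3 at 65.7 CPM in p27K negative cells of tumour 3. In D2A1 the p27K high library of tumour 3 was high for Dnajb2 (97.4 CPM), Dnajc19 (51.3 CPM) and Dnajc9 (38.2 CPM), and the p27K negative library of tumour 1, the shallowest of all, was low for Dnajc11 (100.2 CPM) and Dnajc22 (16.3 CPM) and high for Hspe1 (238 CPM). In EMT6 tumour 0 was high for Dnajb1 (791 CPM) and Dnajb4 (89.9 CPM) in p27K high cells and for Dnajc3 (247 CPM) in p27K negative cells, and p27K negative cells of tumour 4 were high for Dnajc22 (19.6 CPM).

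The gate change differed between the 3 lines, by the test of the difference in the joint edgeR fit, for 20 of the members described in full. In the cytosol and nucleus the adjusted p was 1.46e-05 for Hspa1a, 0.00891 for Hspa1b, 0.00631 for Hspa4, 0.00193 for Hsph1, 0.0151 for Hsp90aa1, 0.0123 for Hsp90ab1, 0.0107 for Hspb8, 0.00268 for Dnaja1, 0.00197 for Dnaja2, 0.000951 for Dnajb4 and 0.00115 for Dnajc9. In the ER it was 0.00637 for Hspa5, 0.0203 for Hsp90b1, 0.00121 for Dnajb9 and 0.00475 for Hspa13. In mitochondria it was 0.000101 for Hspa9, 0.00894 for Hspd1, 0.0126 for Hspe1, 0.0232 for Dnaja3 and 0.00257 for Dnajc11. The difference of Dnaja3 was lost in 6 of 16 alternatives, that of Hsp90aa1 in 3 and that of Hsp90b1 in 2.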

How the results depend on the processing

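Counts of called members moved by over 1.5 times under a few settings. The fit without the tumour block (the pairing of both gates of a tumour) gave 11 rises in 4T07 in place of 20, 5 rises and 18 falls in EMT6 in place of 11 and 28, and 14 members that differed between lines in place of 24. In D2A1 it gave 6 rises and 13 falls in place of 7 and 14, where 13.9% and 13.8% of all genes rose and fell. Total-count scaling gave 12 rises and 11 falls in 4T07. The joint fit gave 12 rises in D2A1, and 6 rises and 17 falls in EMT6. The shares of all genes that rose or fell by line were not counted in that fit. Leaving out each tumour in turn gave 10 to 25 rises and 3 to 12 falls in 4T07, 3 to 11 rises and 9 to 21 falls in D2A1, 7 to 13 rises and 21 to 28 falls in EMT6, and 18 to 26 members that differed between lines. The shares over all genes moved in these fits as well. In 4T07 12.7% to 30.2% rose and 16% to 29.7% fell. In D2A1 9.07% to 17.9% rose and 9.7% to 19.1% fell. In EMT6 18.2% to 25.7% rose and 19.7% to 26.5% fell. Of all genes, 18.3% to 27.2% differed between lines. DESeq2, RLE scaling, no filter, a stricter filter, summed Hspa1a and Hspa1b and thinned D2A1 libraries kept these counts within 1.5 times. Over all alternatives, the changes of the members described in full kept their side of the threshold in 1142 comparisons. They no longer passed in 106 and newly passed in 34. None changed sign where either of the compared fits passed. Some that passed in neither did change sign, such as Hspa1a in D2A1 (0.23, with -0.12 to 0.44 over the alternatives) and Hspa4 in 4T07 (0.082, with -0.061 to 0.17). Of the differences between lines, those of Dnaja1, Hspa1b, Hspa4, Hspb8 and Hsph1 were lost without the tumour block. That of Hsp90aa1 was lost without the block, with total-count scaling and without 4T07 tumour 1 (adjusted p of 0.0035 to 0.0672 in 16 alternatives), and that of Hsp90b1 without the block and without 4T07 tumour 1 (0.0077 to 0.0769). That of Dnaja3 was lost with total-count scaling, with no filter, without 4T07 tumour 1 or 3 and without EMT6 tumour 1 or 4 (0.0127 to 0.187). Depth limits what can be tested: with D2A1 thinned to 1335433 counts per library, 9900 genes in place of 12845 could be tested. There 6 members rose and 12 fell, where 14% and 13.9% of all genes did.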
